A study of Homo sapiens with 33 samples.

Results

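The comparison described here sets 4 knockout libraries in which CDK7 was targeted against 4 in which it was not, in the human breast cancer line MDA-MB-231, spelled MDA-MD-231 in the labels. The CDK7-targeted libraries were CDK7 KO and CDK7/9 KO, the double knockout of CDK7 and CDK9, each at 72 and 96 h. The CDK7-intact libraries were CDK1 KO and CDK9 KO at the same times, so every library in the comparison carried a targeted kinase, and CDK9 was targeted in 2 libraries of each arm. Members were taken by genotype label alone: 8 of the 33 samples in the series, with 2 further empty vector libraries (72 and 96 h) as an untargeted reference. Each genotype had 1 library per time. The labels do not say how the knockouts were made, which exon was cut, whether a line was a clone or a pool, or whether 72 and 96 h were separate cultures, so genotype and culture cannot be told apart and p-values measure only the spread between these libraries.

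CDK7 is the kinase of the CDK-activating kinase, which it forms with cyclin H (CCNH) and MAT1 (MNAT1). As part of the general transcription factor TFIIH it phosphorylates the tail of RNA polymerase II at promoters, and by phosphorylating the activation loops of other CDKs it acts on both the cell cycle and transcription; CDK9 is one of its substrates and drives release of paused polymerase, and CDK1 is the mitotic kinase. Genes with short-lived mRNAs, such as immediate-early and inflammatory genes, are among those known to respond quickly when these kinases are blocked.

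The libraries were 3' tag libraries (QuantSeq), and levels are CPM, the counts per 1000000 of the library scaled by the trimmed mean of M-values; between genes the levels compare tags, not full transcripts. Totals ran from 16985219 to 22417327 counts over the 8 knockouts. The paired times of a knockout agreed more closely (chi-square per degree of freedom 4.14 to 5.64) than the 2 empty vector libraries (41.4), and the empty vector library at 96 h stood apart from the rest on the first principal component (42.99% of variance). Mitochondrial mRNAs took 3.72% to 4.01% of counts in CDK1 KO and CDK7 KO and 5.04% to 5.98% in CDK9 KO and CDK7/9 KO. MDA-MB-231 identity markers had medians of 332 to 425 CPM, epithelial markers 6.45 to 15.0 CPM, and immune markers summed to 10.8 to 17.1 CPM.

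Values below run in the order CDK7 KO 72 and 96 h and CDK7/9 KO 72 and 96 h for the CDK7-targeted arm, then CDK1 KO 72 and 96 h and CDK9 KO 72 and 96 h for the CDK7-intact arm. CDK7 was at 15.4, 13.8, 15.7 and 17.2 CPM in the targeted arm and at 45.7, 47.8, 49.2 and 47.6 CPM in the intact arm. The arms did not overlap and every targeted library lay within a few CPM of the others. CDK7 was 3.06-fold lower (log2 fold change -1.62 ± 0.09 SE, edgeR quasi-likelihood test, adjusted p = 0.000135). The tags that remained report mRNA, not protein, and with the cut site not given they do not measure how many cells were edited.

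CDK1 was at 82.7 and 85.1 CPM in CDK1 KO and between 141 and 183 CPM in the other 6 knockouts. CDK9 was at 33.4 and 36.5 CPM in CDK9 KO and at 34.6 and 36.8 CPM in CDK7/9 KO, against 67.4 to 74.6 CPM in CDK1 KO and CDK7 KO. Each targeted gene was therefore lowest in the libraries labelled with its knockout. Empty vector levels at 72 and 96 h were 49.3 and 66.6 CPM for CDK7, 180 and 283 CPM for CDK1, and 70.9 and 62.2 CPM for CDK9.

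**Figure D1:**
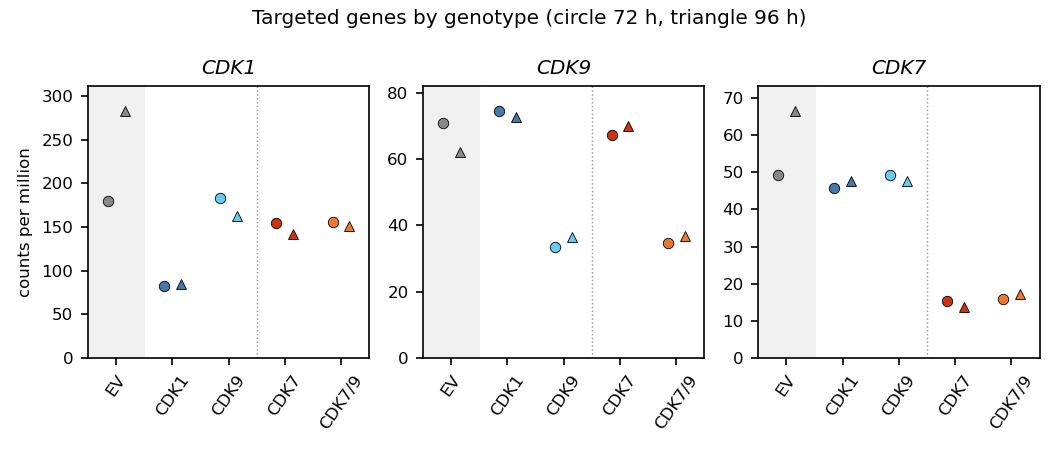
Level of CDK1, CDK9 and CDK7 (CPM, y axis) in each library by genotype (x axis; EV, empty vector; the others are knockouts), with circles for 72 h and triangles for 96 h; the dotted line parts CDK7-intact from CDK7-targeted knockouts and each point is 1 library. CDK7 lies between 13.8 and 17.2 CPM in the 4 CDK7-targeted libraries, with no overlap with the intact ones.

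Over all genes, 16162 were tested with the time as a block. At an adjusted p of 0.05, 2 genes passed (0.0124% of those tested, or 0.00619% in each direction), and CDK7 itself was the one that fell; 1088 genes had an unadjusted p under 0.05.

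The spread in that fit includes the difference between CDK9-targeted and CDK9-intact libraries inside each arm. Its common dispersion was 0.018, against 0.00949 in a fit with a term for each genotype over 10 libraries, in which 75 genes passed (0.447%), 5 higher (0.0298%) and 70 lower (0.417%). SCD, CDH4, KRT19 and COL8A1 were among those that rose. With a term for CDK9 targeting added to the 8-library fit, an alternative chosen after seeing the data, 543 of 16658 genes passed (3.26%), 180 higher (1.08%) and 363 lower (2.18%). That count fell to 142 and 116 without CDK1 KO at 72 or 96 h and to 114 and 80 without CDK7 KO at 72 or 96 h, and lay between 537 and 728 without any 1 of the other 4 libraries. The genotype fit without the deviating empty vector library, also added after seeing the data, called 1683 genes (9.59%), 818 higher (4.66%) and 865 lower (4.93%); its spread comes only from how far the 72 and 96 h knockouts of a genotype differ from the shared time effect. Below, "CDK9-term fit" names the 543-gene fit, and a gene is said to rise or fall only where the fit named beside it passed. Gene lists were chosen with earlier results of these data known, so list counts beside the share of all genes are descriptions, not tests.

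Against the empty vector, the targeted arm had CDK7 lower (log2 fold change -1.89, adjusted p = 5.04e-05) among the 2 genes that passed (0.0119%). Without the empty vector library at 96 h CDK7 alone passed, and without the one at 72 h, 2277 genes passed. For the intact arm against the empty vector 0 genes passed in edgeR, with 2594 at an unadjusted p under 0.05 and 118 by DESeq2. That test pools CDK1 KO with CDK9 KO, and each differed from the empty vector in the genotype fit over 10 libraries. There CDK1 KO called 59 genes (0.352%), 54 higher and 5 lower, and CDK9 KO called 1369 (8.16%). CDK7 KO called 4 genes (0.0238%) and CDK7/9 KO 1903 (11.3%). All of these counts rest on the same empty vector libraries.

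Of 14 tested epithelial markers 9 were above 0 and 5 below, with a median log2 fold change of 0.07, and in the CDK9-term fit 2 of 15 rose (1.08% of all genes did) and none fell. KRT19, a simple-epithelium keratin, was at 362, 340, 194 and 167 CPM in the targeted arm and at 268, 242, 154 and 116 CPM in the intact arm. It was higher within each pair that shares CDK9 status and time, while the arms overlapped, with both CDK9-targeted genotypes low (log2 fold change 0.44 ± 0.05, adjusted p = 0.0006, CDK9-term fit). EPCAM stood at 6.45 to 8.85 CPM and CLDN3 at 0.235 to 1.05 CPM over the 8 knockouts, so 2 of the defining epithelial genes were low in both arms.

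CDK7's own partners came next. Of 9 measured CDK-activating kinase and TFIIH genes, 4 were below 0 and 5 above, with a median log2 fold change of 0.02, against 0.00 for all genes. CCNH was at 44.5, 39.98, 45.3 and 44.0 CPM in the targeted arm and at 47.6, 47.5, 50.8 and 48.5 CPM in the intact arm. These values did not overlap between arms but differed by little (-0.16 ± 0.07, adjusted p = 0.711), and CCNH lies on chromosome 5, farther out on the long arm than CDK7. MNAT1 was at 28.9, 29.9, 26.5 and 25.5 CPM in the targeted arm and at 23.8, 26.0, 26.7 and 24.3 CPM in the intact arm, which overlap. ERCC2, the XPD helicase of TFIIH, rose in the CDK9-term fit (0.31 ± 0.05, adjusted p = 0.00625), with 137, 114, 140 and 127 CPM against 104, 87.0, 116 and 112 CPM. RNA polymerase II subunits had a median of 0.02 with none of 13 called in that fit. The 17 nucleotide excision repair genes outside TFIIH had a median of 0.05 with none called. The fit called 3.26% of all genes, and at that share lists this small can hold none, so these counts do not show that the lists were unchanged.

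A widespread difference lay along chromosome 5. CDK7 lies on the long arm of chromosome 5 (chr5:69234795-69277430, RefSeq GRCh38.p14). Of 491 tested genes between CDK7 and the long-arm end, 421 were below 0 and 70 above, with a median log2 fold change of -0.15 (a change of -10.1%). On the short-arm side of CDK7, 172 genes had a median of -0.02, with 99 below 0 and 73 above. Windows were cut at CDK7, so they do not place the start of the shift more finely than their width. Medians were -0.01, 0.00 and -0.03 in the 3 windows running up to CDK7 from the short-arm end, and -0.12, -0.14, -0.16, -0.17 and -0.16 in the 5 windows beyond it. Every window held at least 41 genes.

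The shift stood in all 4 pairs of libraries that share CDK9 status and time. For 337 genes of the distal arm at 10 CPM or more, the median difference in log2(CPM + 1) was -0.17 and -0.14 for CDK7 KO minus CDK1 KO at 72 and 96 h, and -0.16 and -0.14 for CDK7/9 KO minus CDK9 KO. Relative to the empty vector library at 72 h, with the median of all genes set to 0, the same genes were at -0.17, -0.16, -0.15 and -0.12 in the targeted arm and at 0.01, 0.02, 0.02 and 0.02 in the intact arm. The 2 arms did not overlap, and the empty vector library at 96 h was at 0.08. All 4 targeted libraries lay below all 4 intact ones for 90 of the 491 genes (18.3%), where the share over all genes was 2.68%; the opposite order held for 2 genes, PCDHB16 and BRCC3P1 (1.83% over all genes).

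In the CDK9-term fit 88 of 502 distal genes fell and 0 rose. This stretch thus supplied 88 of the 363 falling genes (24.2%) while holding 502 of the 16658 genes tested in that fit. The count of falling genes there was 29 and 24 without CDK1 KO at 72 or 96 h, 26 and 18 without CDK7 KO at 72 or 96 h, and between 65 and 88 without any 1 of the other 4 libraries, while the median over the stretch stayed between -0.15 and -0.16. In the comparison without the CDK9 term the middle 50% of the 491 genes lay between -0.25 and -0.08. MCTP1, a calcium-binding membrane protein gene, was at 62.5, 63.9, 64.5 and 63.3 CPM in the targeted arm and at 80.3, 82.5, 81.9 and 79.8 CPM in the intact arm. The gap between the arms was wider than the range inside either (-0.35 ± 0.05, adjusted p = 0.281; CDK9-term fit, adjusted p = 0.0015). RBM22, a splicing factor gene, was at 62.6, 71.4, 65.6 and 73.3 CPM against 83.3, 84.1, 82.8 and 87.4 CPM. The arms were again separate (-0.31 ± 0.06, adjusted p = 0.538; CDK9-term fit, adjusted p = 0.00387). ELL2, an elongation factor subunit that works with CDK9, and the autophagy receptor gene SQSTM1 also fell in the CDK9-term fit, by 0.27 and 0.37 on the log2 scale. DNA copy number was not measured in these libraries, and whether it differed was not tested.

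**Figure D2:**
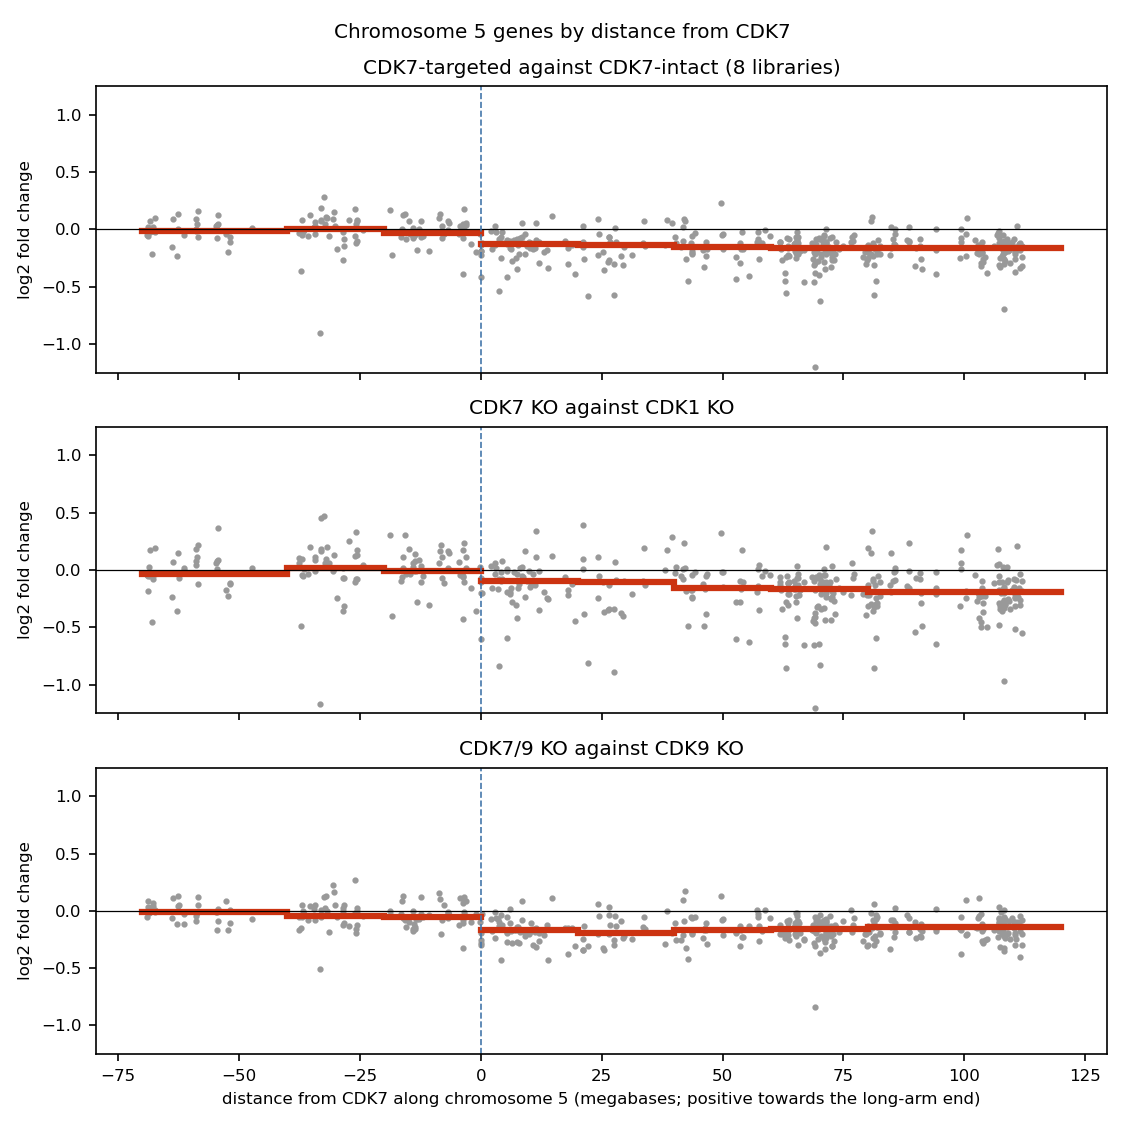
Log2 fold change of chromosome 5 genes (y axis) against distance from CDK7 in megabases (x axis, positive towards the long-arm end, dashed line at CDK7) for the whole comparison and for its 2 components; grey points are genes at 10 CPM or more, drawn at the frame where beyond 1.2, and red bars are medians of all tested genes in a window. The medians sit near 0 before CDK7 and between -0.12 and -0.17 after it in the whole comparison.

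A stretch of the intact arm showed the mirror image. The 268 genes on chromosome 10 between CDK1 and the long-arm end were at -0.18 and -0.20 in CDK1 KO, on the same scale relative to the empty vector library at 72 h, and between -0.03 and 0.02 in the other 6 knockouts. In the arm comparison the 394 tested genes there had a median of 0.09, made of 0.20 in CDK7 KO against CDK1 KO and 0.00 in CDK7/9 KO against CDK9 KO. With the empty vector in place of CDK1 KO that median was -0.03, so the sign for this stretch rests on CDK1 KO. SCD, described below, lies within that stretch. The stretch of chromosome 9 between CDK9 and the long-arm end was low in the CDK9-targeted libraries of both arms. On that scale its 121 genes were at -0.16 and -0.16 in CDK9 KO and at -0.17 and -0.14 in CDK7/9 KO, against 0.02 and 0.02 in CDK1 KO, 0.00 and -0.03 in CDK7 KO and -0.27 in the empty vector library at 96 h. CDK9 was targeted in both arms, and the arm comparison had a median of -0.01 over 164 genes there.

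Immediate-early genes were lower in the targeted arm, mainly in CDK7 KO against CDK1 KO. These are transcription factor and feedback genes switched on within minutes of growth factor signalling. Of 28 tested, 22 were below 0, with a median log2 fold change of -0.19. In the CDK9-term fit 10 fell (background 2.18%) and 1, JUND, rose (background 1.08%). The median was -0.30 in CDK7 KO against CDK1 KO and -0.05 in CDK7/9 KO against CDK9 KO. Relative to the empty vector, the list had medians of 0.34 in CDK1 KO, 0.02 in CDK9 KO, 0.03 in CDK7 KO and -0.06 in CDK7/9 KO. EGR1, a zinc finger transcription factor gene, was at 58.9, 51.3, 60.001 and 68.7 CPM in the targeted arm and at 171, 212, 111 and 119 CPM in the intact arm. The arms did not overlap, and CDK1 KO was the highest genotype. EGR1 was 2.57-fold lower (-1.36 ± 0.20, adjusted p = 0.216) and passed in the CDK9-term fit (-1.33 ± 0.14, adjusted p = 0.000247). EGR1 lies on the distal part of chromosome 5, whose median is given above, and its difference was many times that median.

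KLF4, a Krüppel-like transcription factor gene on chromosome 9, was at 44.4, 45.6, 45.2 and 50.1 CPM in the targeted arm and at 73.5, 88.7, 61.7 and 70.5 CPM in the intact arm. No library crossed between arms (-0.67 ± 0.09, adjusted p = 0.216; CDK9-term fit, adjusted p = 0.000247). KLF10, a TGF-beta-induced member of the same family, was at 31.3, 45.5, 45.4 and 70.1 CPM against 80.4, 116, 67.4 and 98.1 CPM. Here the arms overlapped only through the 96 h CDK7/9 KO library, and KLF10 fell in the CDK9-term fit (-0.94 ± 0.12, adjusted p = 0.00089). FOS, a subunit of the AP-1 factor, was at 38.7, 30.8, 40.03 and 46.0 CPM against 52.4, 58.9, 56.6 and 66.6 CPM and fell in that fit (-0.60 ± 0.08, adjusted p = 0.0015). The empty vector libraries held EGR1 at 92.4 and 102 CPM, above every targeted library and below every intact one. KLF4 was at 54.5 and 47.9 CPM there and FOS at 46.4 and 41.3 CPM, below every intact library and overlapping the targeted arm.

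Inflammatory genes were mostly lower in the targeted arm, mainly in CDK7 KO against CDK1 KO. The list's median was -0.91 there and -0.03 in CDK7/9 KO against CDK9 KO. Of 26 tested NF-kB and inflammatory genes 24 were below 0, with a median of -0.55, and 11 of 27 fell in the CDK9-term fit (2.18% of all genes did) with none rising. IL1A, which encodes the cytokine interleukin-1 alpha, was at 2.61, 1.76, 2.87 and 3.18 CPM in the targeted arm and at 12.2, 15.3, 5.13 and 5.94 CPM in the intact arm. TNFAIP3, the NF-kB feedback inhibitor A20, was at 16.2, 13.6, 12.6 and 16.4 CPM against 40.8, 52.98, 20.2 and 21.6 CPM. Neither gene overlapped between arms, and CDK1 KO was the highest genotype for both. The CDK9-term fit gave -1.81 ± 0.26 for IL1A (adjusted p = 0.0024) and -1.13 ± 0.17 for TNFAIP3 (adjusted p = 0.00281). IL6, an inflammatory cytokine gene, was at 8.94, 9.42, 6.79 and 6.45 CPM against 28.6, 35.2, 6.23 and 6.65 CPM, so its difference came from CDK1 KO alone.

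Interferon-stimulated genes form the antiviral programme downstream of STAT and IRF factors. They had a median of -0.37, with 33 of 35 below 0 and 14 falling in the CDK9-term fit, where 2.18% of all genes fell. Relative to the empty vector, the list had medians of 0.31 in CDK1 KO, -0.18 in CDK9 KO, -0.23 in CDK7 KO and -0.37 in CDK7/9 KO. OASL was at 31.5, 32.7, 23.4 and 26.2 CPM in the targeted arm and at 67.5, 91.3, 32.1 and 36.9 CPM in the intact arm, where the arms overlapped through CDK9 KO (-0.92 ± 0.12, adjusted p = 0.0015, CDK9-term fit). IFI44 was at 33.8, 35.2, 32.6 and 31.6 CPM against 59.9, 66.1, 39.7 and 41.6 CPM, with no overlap (-0.62 ± 0.09, adjusted p = 0.0024, same fit). Among 19 antigen presentation genes 8 fell in that fit, against the same 2.18%. HLA-B, a class I heavy chain gene, was at 388, 382, 520 and 566 CPM against 591, 735, 631 and 694 CPM, and HLA-C fell by 0.32 on the log2 scale. HLA-B and HLA-C are near-identical paralogs in part, so how the authors' counting divided shared reads is uncertain.

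**Figure D3:**
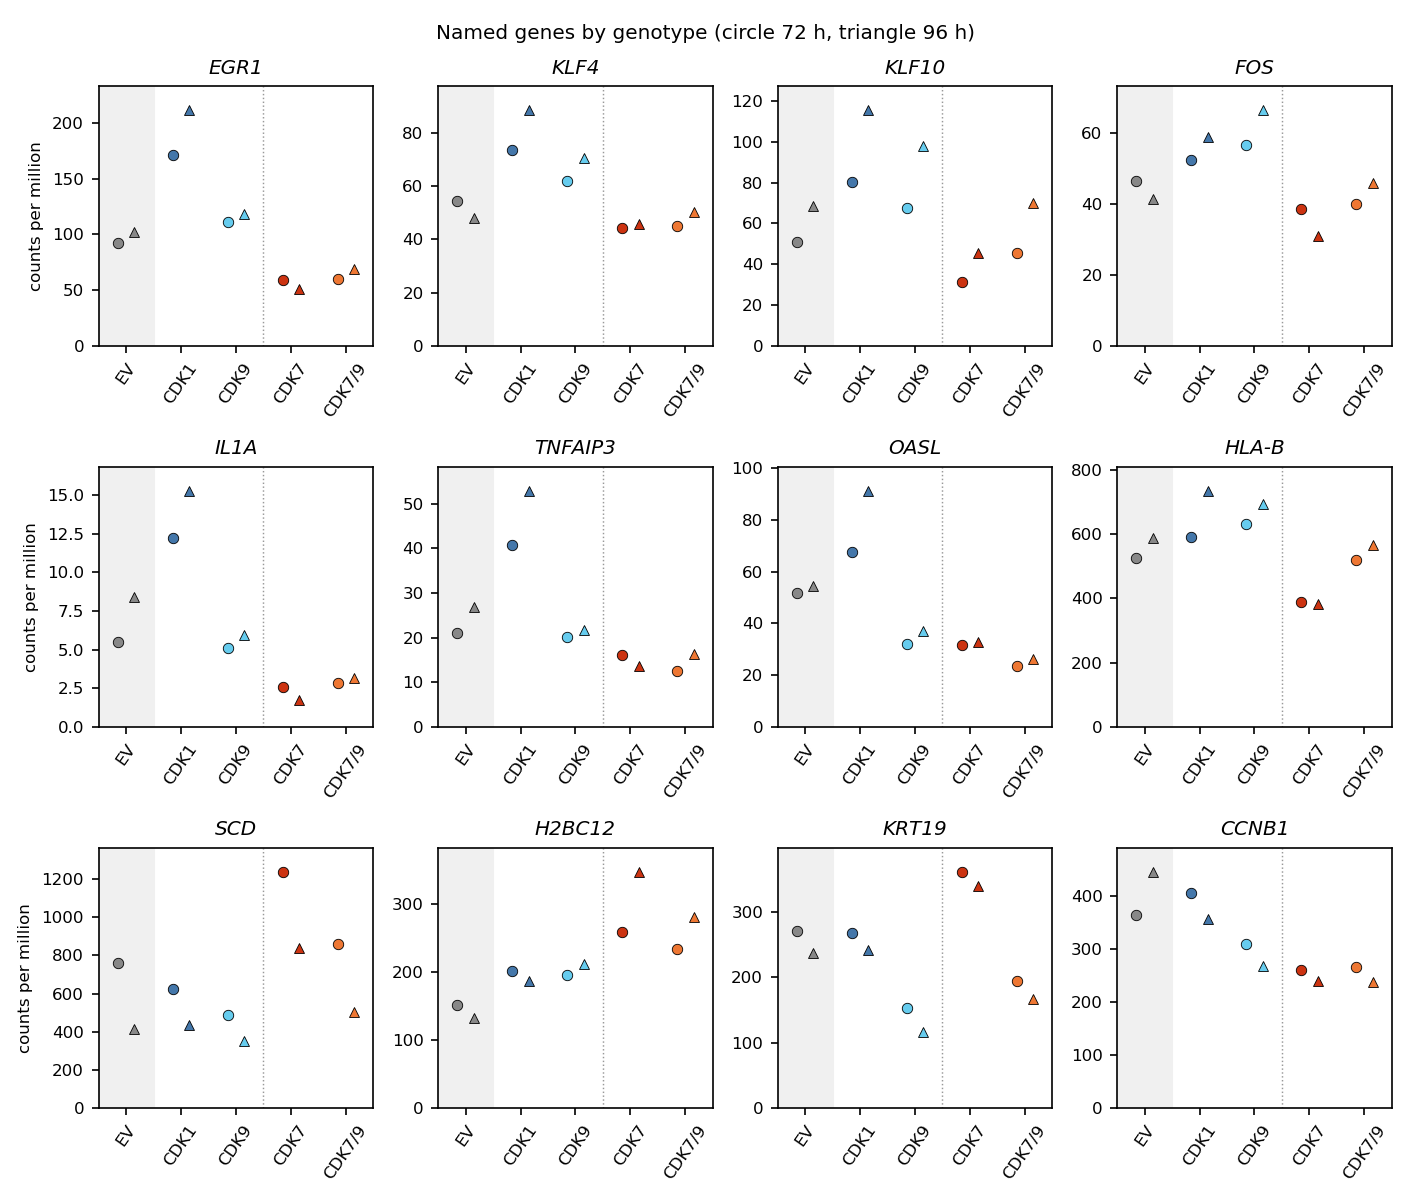
Level of 12 named genes (CPM, y axis from 0) in each library by genotype (x axis; EV, empty vector; the others are knockouts), with circles for 72 h and triangles for 96 h; the dotted line parts CDK7-intact from CDK7-targeted knockouts. EGR1, KLF4, FOS, IL1A, TNFAIP3, HLA-B and CCNB1 lie lower in all 4 CDK7-targeted libraries, and H2BC12 higher, than in any intact one, while KLF10, OASL, SCD and KRT19 overlap between arms.

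Each of these 3 gene groups has a known promoter element, shown here for 1 member each that was lower in all 4 targeted libraries than in any intact one. Promoters were RefSeq windows of GRCh38.p14 from 250 bases before to 50 bases after the start, searched on both strands, and only the part before the start is printed, 5' to 3' along the gene, with matches in capitals. The CArG box, bound by serum response factor, occurred in 3 of 20 immediate-early genes with a promoter entry and in 1.604% of all genes. An NF-kB site occurred in 13 of 24 genes of the inflammatory list and in 13.3% of all genes. The interferon-response core, GAAA, any 2 bases and GAAA again, occurred in 18 of 29 interferon-stimulated genes and in 4.38% of all genes. The windows printed are chr5:138465345-138465434 for EGR1, chr6:137867158-137867247 for TNFAIP3 and chr1:78649731-78649788 for IFI44, all on the plus strand. The TNFAIP3 and IFI44 matches read on the opposite strand. The matches describe the sequence and do not show that a factor was bound.
EGR1: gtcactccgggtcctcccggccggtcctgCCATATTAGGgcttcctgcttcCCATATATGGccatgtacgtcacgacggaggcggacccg
TNFAIP3: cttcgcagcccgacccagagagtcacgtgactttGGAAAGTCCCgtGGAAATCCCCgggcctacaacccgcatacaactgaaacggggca
IFI44: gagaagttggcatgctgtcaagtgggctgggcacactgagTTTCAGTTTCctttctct

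Lipid synthesis genes were higher in the targeted arm. Of 29 genes for cholesterol and fatty acid synthesis 27 were above 0, with a median log2 fold change of 0.17, and 10 rose in the CDK9-term fit (background 1.08%) with none falling. SCD, the stearoyl-CoA desaturase that makes monounsaturated fatty acids, was at 1240, 838, 860 and 506 CPM in the targeted arm and at 625, 436, 487 and 352 CPM in the intact arm. At each time every targeted library was above every intact one, but the 96 h CDK7/9 KO library lay below the 72 h CDK1 KO library (0.84 ± 0.17, adjusted p = 0.538; CDK9-term fit 0.82 ± 0.06, adjusted p = 3.47e-06). SREBF1, the transcription factor gene of this pathway, was at 136, 104, 130 and 92.2 CPM against 110, 83.5, 102 and 79.4 CPM (0.29 ± 0.05, adjusted p = 0.00387, CDK9-term fit). FASN, fatty acid synthase, and ACACA, acetyl-CoA carboxylase, rose in that fit by 0.42 and 0.30 on the log2 scale. Leaving out 1 library moved the list's median between 0.10, without CDK7 KO at 72 h, and 0.28, without CDK7/9 KO at 96 h. By pair it was 0.21 and 0.16 for CDK7 KO minus CDK1 KO and 0.25 and 0.09 for CDK7/9 KO minus CDK9 KO. Relative to the empty vector, the list had medians of 0.21 in CDK7 KO and -0.01 in CDK7/9 KO. The same fits gave 0.04 in CDK1 KO and -0.21 in CDK9 KO, so CDK7/9 KO was higher than a lowered CDK9 KO but not above the empty vector.

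Some histone genes were higher as well. H2BC12, a histone H2B gene, was at 260, 348, 233 and 281 CPM in the targeted arm and at 201, 187, 196 and 211 CPM in the intact arm. No library overlapped (0.48 ± 0.10, adjusted p = 0.538; CDK9-term fit, adjusted p = 0.00384). In that fit 4 of 22 histone genes rose, H2BC12, H1-2, H2BC5 and H2AC6, and none fell (1.08% of all genes rose). The list's median was 0.02 in CDK7 KO against CDK1 KO, where H2BC15 and H2BC21 fell by 0.90 and 0.69 on the log2 scale (adjusted p = 0.0206 and 0.0167, edgeR) and none rose, and 0.21 in CDK7/9 KO against CDK9 KO, where none passed. Most replication-dependent histone mRNAs lack a poly(A) tail, so these tags cover only a fraction of them.

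Mitotic genes and host genes of small nucleolar RNAs (snoRNAs) were lower in the targeted arm than in the pooled intact arm. Of 33 genes of G2 and mitosis 30 were below 0, with a median of -0.17, and 9 fell in the CDK9-term fit (background 2.18%). On the distal part of chromosome 5 lie 3 of these genes, and without them the median was -0.15. Relative to the empty vector, the mitotic list had medians of -0.32 in CDK7 KO and -0.43 in CDK7/9 KO. It was at -0.02 in CDK1 KO and -0.33 in CDK9 KO, so CDK9 KO, an intact genotype, was about as low as CDK7 KO. CCNB1, cyclin B1 and the partner of CDK1, lies 0.057 megabases from CDK7 on its short-arm side (chr5:69167150-69178245). It was at 261, 240, 266 and 238 CPM in the targeted arm and at 405, 357, 310 and 268 CPM in the intact arm. Here the arms were separate by a narrow margin, and CDK1 KO was highest (-0.40 ± 0.07, adjusted p = 0.00497, CDK9-term fit). UBE2C, a ubiquitin-conjugating enzyme of mitotic exit, fell by 0.33 on the log2 scale in that fit (adjusted p = 0.0136). DNA replication genes had a median of -0.02 with none of 41 called in it, where 3.26% of all genes were called. That median joins 0.07 in CDK7 KO against CDK1 KO and -0.095 in CDK7/9 KO against CDK9 KO. Of 21 host genes of snoRNAs and other noncoding RNAs of the nucleus 20 were below 0 (median -0.19) and 9 fell in the CDK9-term fit. SNHG1 was at 61.0, 68.8, 68.4 and 67.0 CPM against 98.3, 113, 82.0 and 80.3 CPM.

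Genes of the matrix and of invasion went both ways, 3 of 47 rising (the collagen genes COL8A1, COL12A1 and COL13A1) and 8 falling in the CDK9-term fit, against 1.08% and 2.18% of all genes. MMP1, interstitial collagenase, was at 257, 413, 260 and 324 CPM in the targeted arm and at 558, 790, 463 and 453 CPM in the intact arm. The arms did not overlap (-0.87 ± 0.16, adjusted p = 0.537; CDK9-term fit, adjusted p = 0.000247). COL8A1, a short-chain collagen gene, rose in the CDK9-term fit (0.41 ± 0.09, adjusted p = 0.0199). TGFBI, a TGF-beta-induced matrix protein gene on the distal part of chromosome 5, was at 128, 117, 139 and 123 CPM against 202, 185, 161 and 151 CPM and fell in the same fit (-0.46 ± 0.07, adjusted p = 0.0024). Heat shock genes, nuclear oxidative phosphorylation genes and p53 targets had medians of -0.04, 0.02 and -0.03; 0 of 19, 0 of 72 and 3 of 25 (AEN, GADD45A and SESN2) of them fell in the CDK9-term fit.

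**Figure D4:**
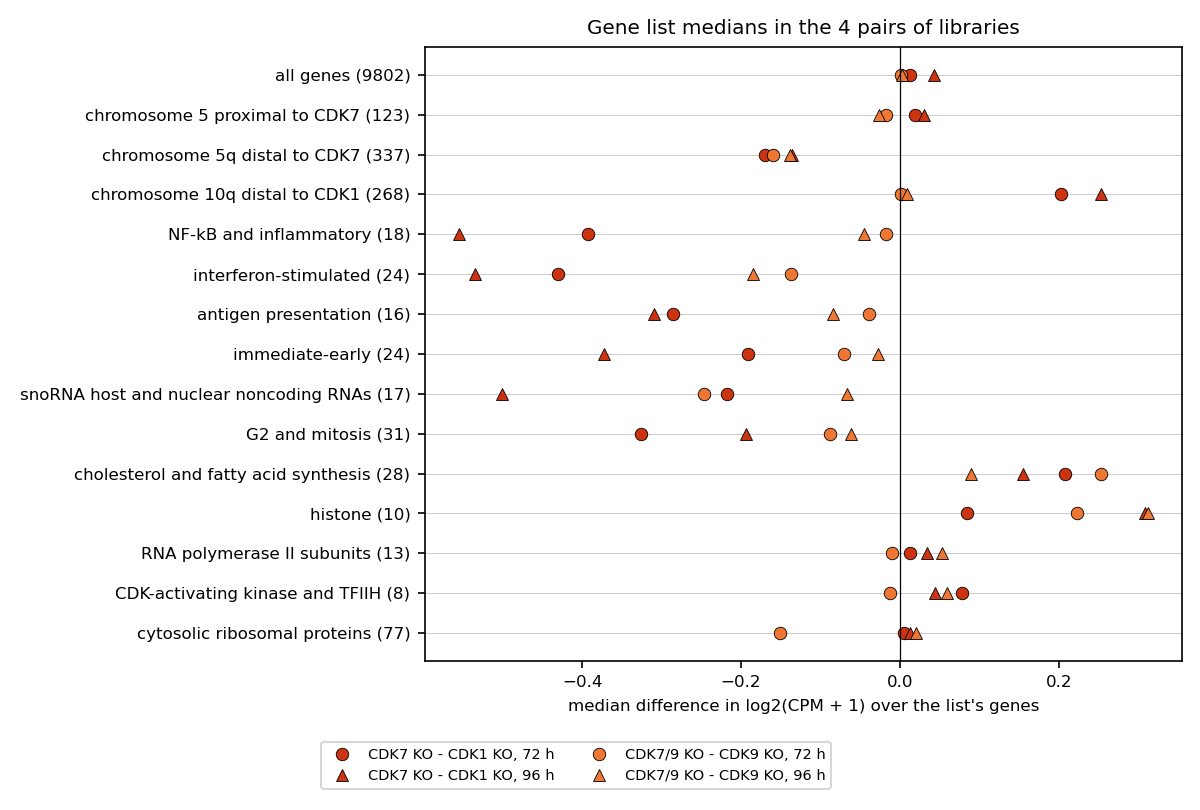
Median difference in log2(CPM + 1) over the genes of each list at 10 CPM or more (x axis), by list with its number of genes in brackets (y axis). The 4 pairs of libraries differ in CDK7 targeting and share CDK9 status and time. Red is CDK7 KO minus CDK1 KO, which also differ in CDK1 targeting, and orange is CDK7/9 KO minus CDK9 KO. Circles are 72 h and triangles 96 h. The distal part of chromosome 5 is the tightest list away from 0 (-0.14 to -0.17), while the inflammatory list runs from -0.55 to -0.02.

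The 2 components of the comparison, which share no library, were then set side by side. CDK7 KO against CDK1 KO called 256 of 16783 genes (1.53%; 43 higher, 0.256%, and 213 lower, 1.27%), and CDK7/9 KO against CDK9 KO called 1 gene, CDK7 (0.00596%), with 442 at an unadjusted p under 0.05 and 4 called by DESeq2. Without the empty vector library at 96 h the counts were 2705 genes, 1339 higher (7.63%) and 1366 lower (7.79%), and 69 genes (0.393%), 37 higher (0.211%) and 32 lower (0.182%). CDK7 itself fell by like amounts, 1.68 ± 0.14 and 1.56 ± 0.14 on the log2 scale (adjusted p = 0.000572 and 0.00461). Across 9810 genes at 10 CPM or more, the log2 fold changes of the components had a Pearson correlation of 0.27 and a Spearman correlation of 0.22, given as a description since genes are not independent. Of 121 such genes that fell in CDK7 KO against CDK1 KO, 98 were also below 0 in CDK7/9 KO against CDK9 KO, with medians of -0.74 and -0.17; of 39 that rose, 29 were above 0, with medians of 0.56 and 0.08.

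Groups are given next by component. The distal part of chromosome 5 had medians of -0.16 in CDK7 KO against CDK1 KO and -0.15 in CDK7/9 KO against CDK9 KO, and lipid synthesis 0.16 and 0.19. The inflammatory list had -0.91 and -0.03, interferon-stimulated genes -0.56 and -0.18, immediate-early genes -0.30 and -0.05, and mitotic genes -0.30 and -0.09. Relative to the empty vector, the inflammatory list had medians of 0.59 in CDK1 KO, -0.12 in CDK7 KO, -0.31 in CDK9 KO and -0.56 in CDK7/9 KO, from fits that share both empty vector libraries. With the empty vector in place of CDK1 KO, the median of the inflammatory list for CDK7 targeting was -0.09 and that of immediate-early genes -0.01.

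The test of the difference between the components called 0 genes in edgeR over 10 libraries, with 1158 at an unadjusted p under 0.05 and 28 called by DESeq2. Without the empty vector library at 96 h, an added alternative, the same test called 665 genes (3.79%): 17 of 28 inflammatory genes and 10 of 28 immediate-early genes had the less negative or more positive change in CDK7/9 KO against CDK9 KO, where 2.14% of all genes did; 1.65% of all genes differed the other way, with none of the inflammatory and 1 of the immediate-early genes. IL6 changed by -1.79 in CDK7 KO against CDK1 KO and by 0.04 in CDK7/9 KO against CDK9 KO, a difference of 1.83 ± 0.19 (adjusted p = 1.67e-06 in that fit). The difference was 0.95 ± 0.11 for EGR1 (adjusted p = 2.26e-05) and 0.82 ± 0.09 for KLF10 (adjusted p = 9.1e-06), although both fell in each component of that fit. For FASN it was -0.06 ± 0.10 (adjusted p = 0.823) and for MCTP1 0.02 ± 0.09 (adjusted p = 0.956). SCD had a difference of -0.30 ± 0.09 (adjusted p = 0.0466), with the larger rise in CDK7 KO.

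**Figure D5:**
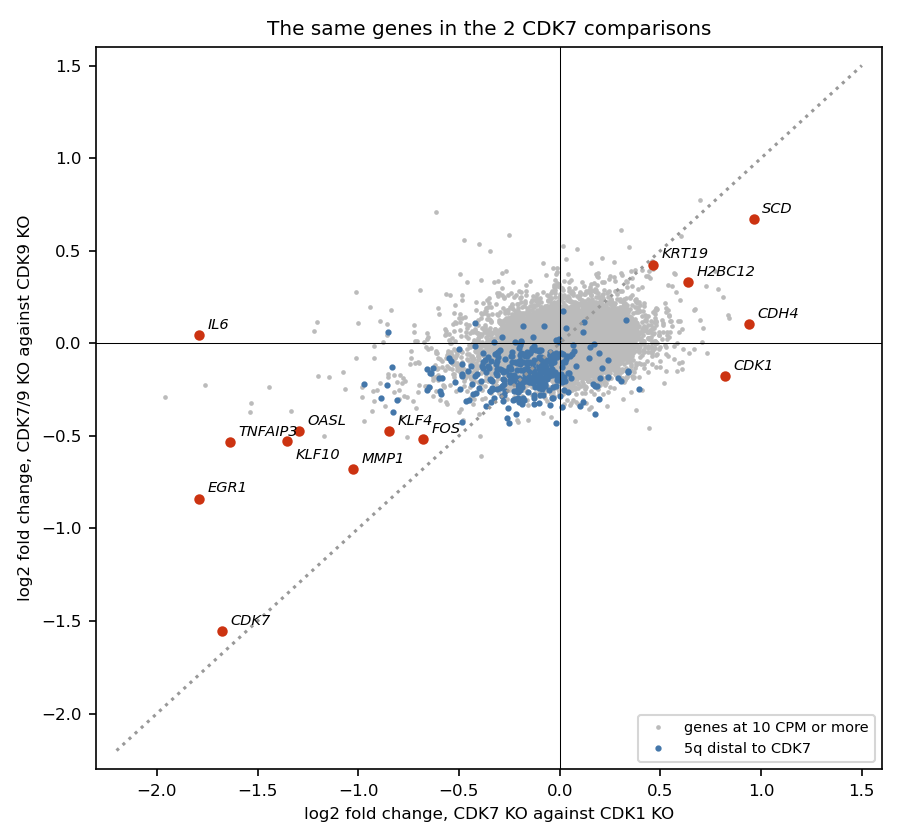
Log2 fold change of each gene at 10 CPM or more in CDK7 KO against CDK1 KO (x axis) and in CDK7/9 KO against CDK9 KO (y axis); blue marks genes of chromosome 5 distal to CDK7, red the named genes, the dotted line equal change, and 1 of 9810 genes lies outside the frame. CDK7 and KRT19 lie close to the line, EGR1 and KLF10 lie nearer the x axis, and IL6 and CDH4 lie almost on it.

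Genes that rose in CDK7 KO against CDK1 KO with the largest changes were SCD (0.96 ± 0.11), CDH4, LRP8 and LDAH. CDH4, the cell adhesion gene R-cadherin, was at 134 and 131 CPM in CDK7 KO and at 72.5 and 65.6 CPM in CDK1 KO (0.94 ± 0.11, adjusted p = 0.00344), but at 78.0 and 71.5 CPM in CDK7/9 KO and 72.1 and 67.1 CPM in CDK9 KO. Its difference between the components was -0.85 ± 0.09 (adjusted p = 1.67e-06 without the empty vector library at 96 h). LRP8, a lipoprotein receptor gene, was at 85.4 and 74.1 CPM in CDK7 KO and 47.9 and 41.1 CPM in CDK1 KO. Among the falls ARRDC4, an arrestin-domain gene, was at 2.01 and 6.81 CPM in CDK7 KO and at 11.4 and 21.4 CPM in CDK1 KO (-1.96 ± 0.24, adjusted p = 0.00344). GADD45A, a stress-response gene, was at 62.6 and 68.9 CPM against 115 and 166 CPM (-1.08 ± 0.14, adjusted p = 0.00384).

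Time and the joint effect of both kinases gave few calls. The change of the CDK7 difference from 72 to 96 h passed for 0 of 16658 genes in edgeR, with 82 at an unadjusted p under 0.05 and 0 called by DESeq2. The CDK7 by CDK9 interaction, which takes the empty vector as the untargeted corner, passed for 0 of 16783 genes, with 618 at an unadjusted p under 0.05 and 0 by DESeq2. Without the empty vector library at 96 h the interaction passed for 1 gene (0.0057%), the histone H2A gene H2AC6 (-0.72 ± 0.11, adjusted p = 0.00861), named after its values were seen. H2AC6 was at 106, 138, 172 and 189 CPM in the targeted arm and at 98.4, 110, 150 and 167 CPM in the intact arm. The empty vector library kept held 60.3 CPM and the one left out held 94.3 CPM. H2AC6 was above both of these in all 8 knockouts and higher in both CDK9-targeted genotypes than in either of the others. With 1 library per genotype and time, a change that these tests miss is not shown to be absent.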

How the data were processed

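The authors deposited raw counts per gene from 3' tag libraries of polyadenylated RNA. FastQC, STAR 2.7.10a and the build GRCh38 are listed per the submitters' processing notes. How reads were assigned to genes (tool, gene models, strand) is not given in the sources used here. Groups came from the genotype and time labels, and the members and gene lists were chosen with earlier results of these data known.

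Counts were tested with edgeR 4.0.16 (R 4.3.3) by its quasi-likelihood test after filterByExpr (minimum count 10, minimum total 15) and trimmed-mean scaling, with arm and time as terms and Benjamini-Hochberg adjustment at 0.05. Standard errors are the log2 fold change over the square root of F. DESeq2 1.42.0, other scalings, no filter, a CDK9 term, genotype models and left-out libraries were alternatives. The arm fit was tested on simulated counts without genotype differences inside an arm, so that test does not cover the spread of these libraries. Genes were named by a fixed rule: targeted genes, genes passing, genes of smallest p at 10 CPM or more, and up to 4 per list; JUND, EPCAM, CLDN3, H2AC6 and the members of counts of 5 or fewer were named after their values were seen, and some genes that passed are not reported here. Positions and promoters are from RefSeq GRCh38.p14.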

Additional observations from a re-analysis of the deposited data

Results flagged for a closer look

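In 2 of 124 sets of 4 libraries checked (62 named genes in each arm), 1 library lay far from the other 3; chance flags about 1 set in 20. EGR2, an immediate-early transcription factor gene, was at 2.68 CPM in CDK7/9 KO at 96 h against 0.904 to 1.105 CPM in the other 3 targeted libraries. AFF4, a scaffold gene of the super elongation complex on the distal part of chromosome 5, was at 267 CPM in CDK9 KO at 72 h against 296 to 298 CPM in the other 3 intact libraries.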

How the results depend on the processing

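The arm comparison called 2 genes with DESeq2's size factors and with no block for the time, and 2 to 3 genes when 1 of the 8 libraries was left out. It called 0 genes when scaled to mitochondrially encoded mRNAs, where CDK7 (-1.60) kept its direction, 283 with no filter on low counts, 44 by DESeq2, 75 in the genotype model over 10 libraries, 6 with the empty vector in place of CDK1 KO and, chosen after seeing the data, 543 with a CDK9 term. The targeted arm against the empty vector called 841 genes with no filter, 304 by DESeq2 and 1 to 2277 when 1 library was left out. For the intact arm against the empty vector these were 637 and 118 genes. CDK7 KO against CDK1 KO called 701 genes with no filter and 2705 without the empty vector library at 96 h. CDK7/9 KO against CDK9 KO called 18 with no filter, 4 by DESeq2 and 69 without that library. The difference between the components called 87, 28 and 665 genes under these 3 settings. The CDK7 by CDK9 interaction called 22 with no filter and 1 without that library, and the change with time 9 with no filter. The median of chromosome 10 genes distal to CDK1 turned to -0.027 with the empty vector in place of CDK1 KO. The causes of these changes were not tested. The labels give no replicate numbers, so libraries could be matched only by genotype and time. The shared time was a block in the arm comparison. Pairs of libraries that share CDK9 status and time were described by their differences, and no fit was blocked by pair.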
